A study of Arabidopsis thaliana with 36 samples.

Results

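The plastid DNA template of wild-type and mutant Arabidopsis seedlings was described from the input libraries of a chromatin immunoprecipitation sequencing (ChIP-seq) study, that is, from fragmented plastid DNA sequenced without an antibody step. Members were all libraries labelled as input, 18 of the 36 libraries of the study, and the immunoprecipitated libraries were not used. Seedlings were 5 days old, grown in continuous light of 100 µmol per m2 and s on 0.5-strength MS medium after 48 h of stratification. Pools of 50 seedlings were fixed with 4% formaldehyde for 4 h, and chloroplasts were pelleted before the DNA was taken. The libraries formed 6 groups of 3, in 3 sets that each held Col0, the wild type, and a mutant. The ptac3 set held Col0 and ptac3, the ptac14 set held Col0 and ptac14, and the pTAC3 set held Col0 and ptac3 again. Together they gave 9 Col0 and 9 mutant libraries, the latter being 6 of ptac3 and 3 of ptac14. The labels named no allele, and a genotype tag that read wild type for all samples, mutants included, was not used. The labels did not say whether replicates came from separate plantings, so p-values measure the spread between these libraries, which may be technical.

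The plastid genome of land plants carries a large and a small single-copy region that are separated by both copies of an inverted repeat, which holds the ribosomal RNA genes. Each plastid holds many copies of it, packed with protein into nucleoids, and its genes are read by a plastid-encoded RNA polymerase (PEP) of bacterial type and a nuclear-encoded polymerase. PTAC3 and PTAC14 are nuclear-encoded proteins associated with PEP in the plastid transcriptionally active chromosome, and mutants that lack such proteins are known to be pale or albino. Their genes lie outside the plastid genome, so the mutant labels could not be checked in these values.

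Coverage, the number of reads over a position, was given for 154477 positions. Its mean per position ranged from 318 to 730 in Col0 and from 425 to 924 in the mutants, and the counting error at a single position was 3.29% to 5.61% of the mean. It covers counting alone, because without molecular identifiers reads need not stem from different molecules. Each library was divided by its own mean, so that 1 is the average of its plastid genome. The values are therefore relative within the plastid genome, and the amount of plastid DNA per cell was not measured. Fewer copies of a region and poorer recovery of its DNA cannot be told apart.

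The regions were located from the coverage table itself, with the mirrored gene pairs as the axis of the repeat. The large single-copy region spanned 84171 bp from the start of the table, each repeat copy 26200 bp and the small single-copy region 17906 bp. The borders are known to about the length of a fragment. In all 18 libraries the mirrored copies of the repeat lined up best without any shift, judged by the steps of coverage from base to base. The first copy held 49.9% to 50.3% of the repeat's coverage, so the copies are described together where possible.

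Relative to the large single-copy region, the small single-copy region had less coverage in the mutants than in Col0, while the repeat as a whole did not differ past the threshold. The small single-copy region carries most genes of the NADH dehydrogenase-like complex of chloroplasts together with ycf1, ccsA, psaC, rpl32 and rps15. In the ptac3 set its coverage was 1.084, 1.043 and 1.042 times that of the large single-copy region in Col0 replicates 1, 2 and 3, and 0.970, 0.976 and 0.951 times in ptac3. In the ptac14 set the ratio was 1.053, 1.071 and 1.051 in Col0 and 0.948, 0.938 and 0.957 in ptac14. In the pTAC3 set it was 1.098, 1.055 and 1.072 in Col0 and 0.968, 1.007 and 0.979 in ptac3. Every mutant library lay below every Col0 library, within each set and over all 18 libraries, and replicate 2 of ptac3 in the pTAC3 set was the only mutant library above 1.

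On the log2 scale, with a pseudocount of 5% of the library mean, the ratio was 0.084 ± 0.025 in Col0 and -0.048 ± 0.029 in the mutants (SD, n = 9 each). It fell by 0.13 (SE 0.011), a ratio 0.913 times that of Col0, with an exact two-sided permutation p of 0.00025 for genotype labels exchanged within sets and an adjusted p of 0.0015 over 6 such single values. That p is the smallest that the 8000 arrangements can give. By set the differences were -0.12 (ptac3 set), -0.15 (ptac14 set) and -0.12 (pTAC3 set). Without 1 kb at each end of the region, a choice made after seeing the data, the call was kept.

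**Figure D1:**
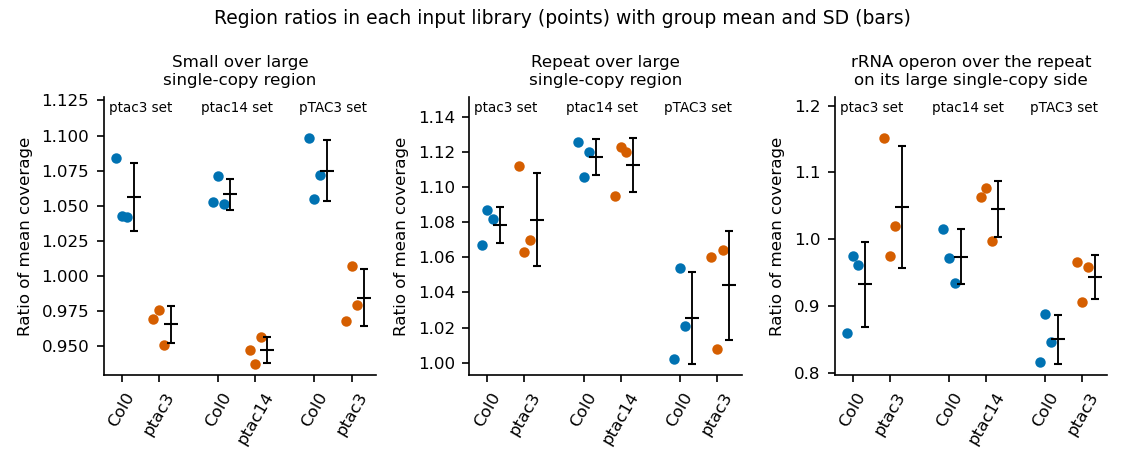
Ratios of mean coverage in each input library, by set and genotype. Points are libraries and bars are the mean and SD of a group of 3. In the left panel the mutant libraries lie between 0.938 and 1.007 and the Col0 libraries between 1.042 and 1.098. The middle panel, repeat over large single-copy region, shows groups that overlap in each set. The right panel shows the ribosomal RNA operon over the rest of the repeat on its large single-copy side.

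The repeat held more coverage per position than the large single-copy region in every library. Its ratio had a lowest, median and highest value of 1.002, 1.082 and 1.126 in Col0 and of 1.008, 1.070 and 1.123 in the mutants. The ranges overlapped almost entirely, and the sets differed more than the genotypes: Col0 averaged 1.117 in the ptac14 set and 1.026 in the pTAC3 set. The log2 difference between mutants and Col0 was 0.0074 (SE 0.013, exact permutation p = 0.565, adjusted p = 0.565). This whole-repeat value joins parts that moved in opposite directions. Without the ribosomal RNA operon, a choice made after seeing the data, the log2 difference was -0.027, with an adjusted p of 0.026 by the exact permutation test.

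The operon, taken here from rrn16S to rrn4.5S, carries rrn16S, trnI, trnA, rrn23S and rrn4.5S, and its coverage was higher in the mutants. Set against the stretch of the repeat between the operon and the large single-copy region, its coverage in the ptac3 set was 0.860, 0.975 and 0.961 in Col0 and 1.151, 0.975 and 1.019 in ptac3. In the ptac14 set it was 1.016, 0.971 and 0.934 in Col0 and 1.063, 1.076 and 0.998 in ptac14. In the pTAC3 set it was 0.816, 0.888 and 0.846 in Col0 and 0.966, 0.906 and 0.958 in ptac3. The groups touched in the ptac3 set, overlapped in the ptac14 set and stood apart in the pTAC3 set. The mean change of this ratio over the sets was 10.3%, given as a description, and the test of the operon is that of its windows below. In the rest of the repeat the mean changes were -0.784% on its large single-copy side and -2.59% on its small single-copy side. The latter value joins a rise near the operon and a fall toward the border, which are described below. That small single-copy side includes the ribosomal RNA entry ArthCr091, which lies near the operon as taken here.

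Coverage was then followed along the genome in 154 windows of 1 kb, each tested with limma across all windows with the set as a factor. Both repeat copies are among the windows, so sequence of the repeat enters the window counts with each copy. Coverage differed between mutants and Col0 in 56 of 154 windows (36.4% of windows, adjusted p under 0.05, Benjamini-Hochberg). It was higher in the mutants in 31 windows (20.1%) and lower in 25 (16.2%). This split depends on the scaling: with libraries scaled to their median window it was 42 higher and 23 lower, and with libraries scaled to the large single-copy region it was 18 higher and 34 lower. The median window changed by -0.0054, 0.0050 and -0.018 under the 3 scalings.

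All 18 windows of the small single-copy region were lower in the mutants past the threshold, against a background of 16.2% of windows lower, and they were so under each of the 3 scalings. Their changes ran from -0.15 to -0.078, with a median of -0.12, against a median of -0.0054 over all windows. All 18 had the same direction in each set, as had 94 of all 154 windows. In 11 of them mutant and Col0 libraries did not overlap in any set, and in 4 the 9 mutant libraries lay below the 9 Col0 libraries. Over all 154 windows, in either direction, 17 had no overlap in any set and 5 had none among the 18 libraries. Positions here follow the deposited coverage, for which the submitters' processing notes name TAIR10.

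The window with the largest fall, at positions 123001 to 124000, held parts of ndhH, which encodes a subunit of the NADH dehydrogenase-like complex, and ycf1, and the ribosomal protein gene rps15. Its scaled coverage had a lowest, median and highest value of 1.010, 1.051 and 1.124 in Col0 and of 0.902, 0.921 and 1.020 in the mutants. Only the ends of these ranges overlapped, and within each set the groups stood apart. Its change was -0.15 (log2, SE 0.017, limma adjusted p = 5.7e-07). The next falls were -0.15 at 116001 to 117000 in ndhD, -0.14 at 125001 to 126000 in ycf1, -0.14 at 117001 to 118000 over ndhD, psaC and ndhE, and -0.14 at 110001 to 111000 over ycf1 and ndhF. The last of these windows lies across the border of the repeat and had no overlap among the 18 libraries, with Col0 between 1.020 and 1.105 and the mutants between 0.928 and 1.013.

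**Figure D2:**
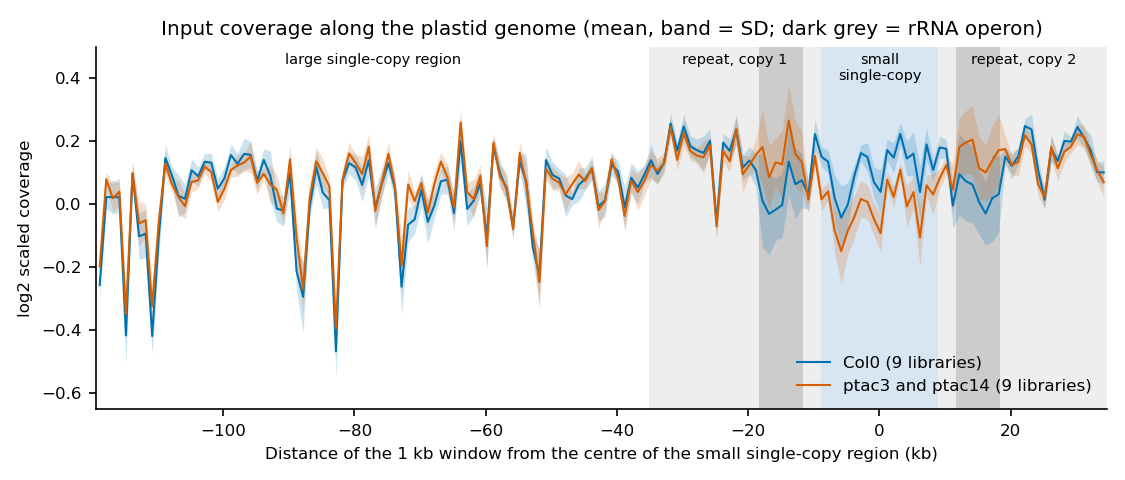
Mean log2 scaled coverage of the 9 Col0 and the 9 mutant input libraries in windows of 1 kb, with SD bands. The x axis is the distance from the centre of the small single-copy region. Both lines share their dips in the large single-copy region, while the mutant line lies below Col0 in the small single-copy region and above it in the ribosomal RNA operon.

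In the ribosomal RNA operon 13 of 15 windows were higher in the mutants past the threshold, against a background of 20.1%. The 15 windows cover both copies of the operon, which share their sequence, so they are not 15 separate stretches of DNA. All 15 were higher in estimate in each set, while 94 of all 154 windows had the same direction in each set. The median change was 0.12. With libraries scaled to the large single-copy region 11 of the 15 passed, and with the median window all 15. The largest rise was at 101001 to 102000 in rrn16S, the gene of the small-subunit ribosomal RNA. There the lowest, median and highest values were 0.809, 0.968 and 1.120 in Col0 and 0.942, 1.097 and 1.264 in the mutants. These ranges overlapped broadly, Col0 itself varied between sets, and the groups stood apart within 1 of the 3 sets. The change was 0.17 (log2, SE 0.037, limma adjusted p = 0.00083). The window at 103001 to 104000 over trnI and trnA, transfer RNA genes in the spacer of the operon, changed by 0.15 (SE 0.024), and its groups stood apart in all 3 sets.

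Over all 154 windows, 20.1% were higher and 16.2% lower past the threshold. Outside the operon, 1 window of the repeat was higher and 4 were lower among 37, both under those shares. Of the lower ones 3 were at the small single-copy end of the repeat, 1 of them across the border. The large single-copy region had 17 higher and 3 lower windows among 84, the higher ones near the share over all windows. Its median change was 0.0055. Under the scaling to that region itself it had 7 higher and 8 lower, and its direction as a whole is therefore set by the scaling. The window with the largest rise in the large single-copy region lay at 47001 to 48000 over trnL, the gene of a leucine transfer RNA. Its values ran from 0.855 to 0.956 in Col0 and from 0.947 to 1.055 in the mutants. The ranges met only at their ends, and the change was 0.13 (SE 0.019, limma adjusted p = 1.9e-05). At 30001 to 31000 over trnY and trnE, tyrosine and glutamate transfer RNA genes, the change was 0.11 (SE 0.018). The 3 lower windows of this region lay in rpoC2, rpoC1 and rpoB, genes of PEP subunits, with changes of -0.042, -0.048 and -0.045. With libraries scaled to their median window the region had 26 higher windows and 1 lower, the one over rpoC2 and rpoC1. Both the trnL and trnY windows, and these 3, were chosen after their values were seen.

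**Figure D3:**
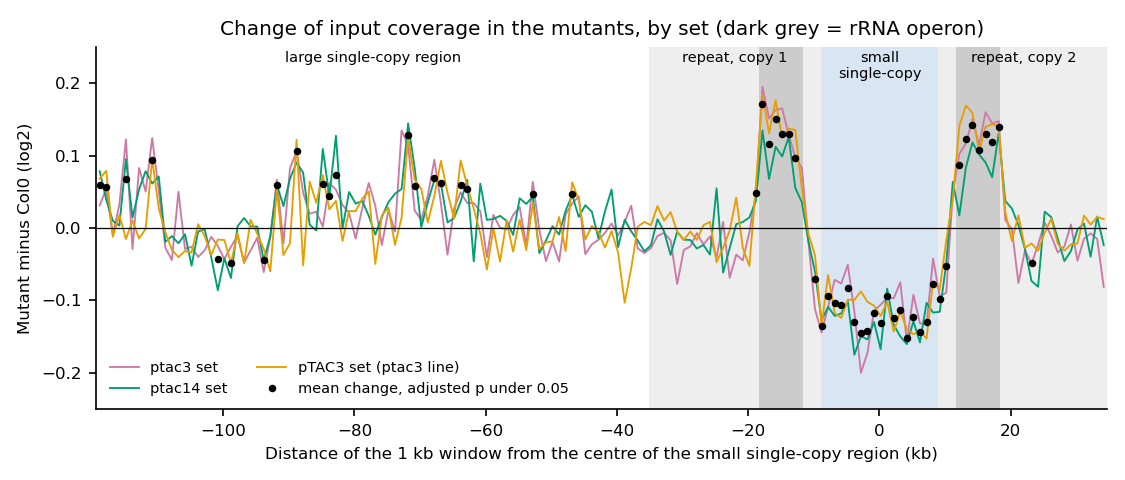
Change of log2 scaled coverage (mutant minus Col0) per window of 1 kb, with a line for each of the 3 sets and black points for the mean change of windows past the threshold. The x axis is the distance from the centre of the small single-copy region. The lines of the sets run together below 0 over the small single-copy region, where all 18 windows are marked, and above 0 over both copies of the operon, where 13 of 15 are marked.

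Each set was also tested against its own Col0. The ptac3 set had 25 changed windows (16.2%), 8 higher (5.19%) and 17 lower (11%). The ptac14 set had 19 (12.3%), 2 higher (1.3%) and 17 lower (11%), and the pTAC3 set had 14 (9.09%), 5 higher (3.25%) and 9 lower (5.84%). These counts rest on 3 libraries a group and moved when a library was left out. The ptac3 set had 5 changed windows without its Col0 replicate 1 and 5 without its ptac3 replicate 1. The ptac14 set had 10 without its Col0 replicate 2 and 9 without its ptac14 replicate 2. In the pTAC3 set the count was 5 without Col0 replicate 1, 27 without Col0 replicate 2, and 4, 35 and 7 without ptac3 replicates 1, 2 and 3. Through the shared spread it also moved with libraries of other sets, to 25 and 30 without replicate 1 of Col0 or ptac3 of the ptac3 set. It was 9 without Col0 replicate 1 or ptac14 replicate 2 or 3 of the ptac14 set. The change of ptac14 differed from that of ptac3 in 0 windows (0%) by limma's contrast of contrasts, with 3 at an unadjusted p under 0.05 and a median SE of 0.037. The ptac3 and pTAC3 sets, whose mutants both carry the label ptac3, differed in 0 windows (0%), with 9 at an unadjusted p under 0.05. In the small single-copy region the change in the ptac14 set was further from 0 than in both other sets in 10 of 18 windows, a description that did not pass the test of the difference.

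The change across the border of repeat and small single-copy region was followed in bins of 250 bp, with both borders averaged. Over the operon, from -9 to -3 kb, it averaged 0.12. It was 0.047 from -2.5 to -2 kb, where negative distances lie inside the repeat, -0.017 from -2 to -1.5 kb, and -0.065 from -1.5 to -1 kb. The change thus passed through 0 inside the repeat, ahead of the border. In the last 0.5 kb of the repeat it was -0.12 and in the first 0.5 kb of the small single-copy region -0.13. Between 1 and 8 kb into that region it averaged -0.12, with set means of -0.11 (ptac3), -0.13 (ptac14) and -0.12 (pTAC3). These values are descriptions without a test, and neighbouring bins share reads.

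**Figure D4:**
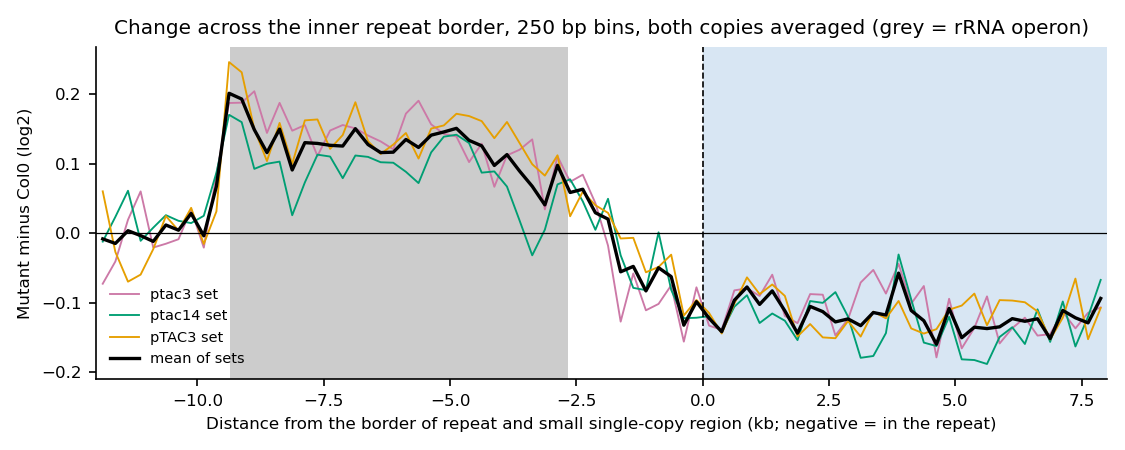
Change of log2 scaled coverage (mutant minus Col0) in bins of 250 bp against the distance from the border of repeat and small single-copy region, averaged over both borders. Coloured lines are the 3 sets and the black line is their mean. The change is 0.12 on average over the operon, passes through 0 between -2.5 and -1.5 kb, inside the repeat, and is about -0.12 in the small single-copy region.

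Gradients along each region were taken as the slope of log2 window coverage per 10 kb. In the large single-copy region the fitted slope, from the trnH end to the first repeat copy, was 0.0094 ± 0.0027 in Col0 and 0.0080 ± 0.0020 in the mutants (SD, n = 9 each). The fit included low windows near the start: the first, at the cut end of the table, and those at 4001 to 5000 and 8001 to 9000. A slope without them was not taken, so a gradient along the whole region is not shown. All 18 libraries had a slope above 0, the groups overlapped, and the difference was -0.0014 (SE 0.0011, exact permutation p = 0.187, adjusted p = 0.281). In the small single-copy region coverage rose with position from ndhF to ycf1, by 0.068 ± 0.013 in Col0 and 0.058 ± 0.026 in the mutants. That slope was also above 0 in all 18 libraries, and it differed by -0.0099 (SE 0.0093, exact permutation p = 0.288, adjusted p = 0.346). The sign of that difference turned in windows of 5 kb, where it was 0.025 (adjusted p = 0.385 by the exact test).

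The slope of the repeat, from its large to its small single-copy side, did change. It was -0.055 ± 0.044 in Col0 and -0.0073 ± 0.043 in the mutants, a difference of 0.048 (SE 0.015, exact permutation p = 0.0035, adjusted p = 0.0105). The lowest, median and highest slopes were -0.115, -0.043 and 0.0044 in Col0 and -0.076, -0.012 and 0.065 in the mutants. These ranges overlapped over all libraries and in the ptac3 and ptac14 sets, and stood apart in the pTAC3 set. Without the ptac14 set the difference was 0.053 with an adjusted p of 0.06, past the threshold no longer. The operon lies in the inner part of the repeat, so its rise enters this slope.

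The spread of a library over its windows (SD of log2 coverage) was 0.135 ± 0.015 in Col0 and 0.123 ± 0.021 in the mutants. The difference of -0.012 (SE 0.0056) had an exact permutation p of 0.04 and an adjusted p of 0.08, and did not pass. Over the 154 windows, the mean profiles of Col0 and the mutants were correlated at r = 0.853, a description across windows that are not independent.

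Gene bodies were tested in the same way, over 128 plastid gene entries. Coverage changed in 34 of them (26.6%), 19 higher and 15 lower in the mutants. With only 1 copy of each repeated gene counted, 29 of 113 genes changed (25.7%), 15 higher (13.3%) and 14 lower (12.4%). With libraries scaled to their median window the split over 128 entries was 25 higher and 14 lower, and with the large single-copy region 15 higher and 20 lower. Of the 29 genes, 22 passed under every one of 25 alternative settings and 0 turned direction.

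The genes that fell were mainly those of the small single-copy region, where 12 of 13 fell under each of the 3 scalings, with a median change of -0.11 against 0.0034 over all 113 genes. All 7 genes there for subunits of the NADH dehydrogenase-like complex fell (ndhA, ndhD, ndhE, ndhF, ndhG, ndhH and ndhI), with changes from -0.15 to -0.11. Of the 4 others, ndhC, ndhJ and ndhK in the large single-copy region did not pass. ndhB in the repeat has an entry in each copy, with a change of -0.029 in the first (SE 0.013, limma adjusted p = 0.131). The second had a change of -0.046 (SE 0.014, limma adjusted p = 0.016), which did pass. The copies share their sequence, so reads cannot be assigned to either and no difference between the copies is shown. The largest fall was at ndhD, whose scaled coverage had a lowest, median and highest value of 1.022, 1.063 and 1.080 in Col0 and of 0.885, 0.946 and 1.007 in the mutants. The 9 mutant libraries lay below the 9 Col0 libraries, and the change was -0.15 (log2, SE 0.018, limma adjusted p = 1.2e-05).

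The other falls of this region had similar sizes. ndhE changed by -0.14 (SE 0.022), ndhI by -0.13 (SE 0.021) and ndhH by -0.12 (SE 0.015). At ndhH the Col0 libraries lay between 1.081 and 1.149 and the mutants between 1.002 and 1.048, with no overlap. ndhF changed by -0.11 (SE 0.014), and its 18 libraries did not overlap either. rpl32, a gene of the large ribosomal subunit, changed by -0.12 (SE 0.035, limma adjusted p = 0.016) and lost the call without the ptac14 set, where its adjusted p was 0.271.

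ycf1, which encodes a protein of the inner envelope import machinery, has an entry of 1032 bp at the end of the first repeat copy and another of 5361 bp that lies mainly in the small single-copy region. The long entry changed by -0.11 (SE 0.017) without overlap of the 18 libraries, and the short one by -0.090 (SE 0.019, limma adjusted p = 0.0016). Their sequences are shared in the repeat, so reads there cannot be assigned to either. ccsA, for cytochrome c maturation, psaC, for the iron-sulfur subunit of photosystem I, ndhA, ndhG and rps15 also fell, by 0.10 to 0.11 on the log2 scale. The exception in the region was trnL (its leucine transfer RNA gene there), with a change of -0.037 that did not pass.

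Transfer RNA genes made up most of those that rose. Of 30, 10 were higher and 0 lower, against 13.3% higher and 12.4% lower over all 113 genes, with a median change of 0.071. With libraries scaled to the large single-copy region 9 were higher and 1 was lower. In the large single-copy region 8 of 22 were higher, and all 22 estimates were above 0 (21 of 22 with libraries scaled to that region). Over all 113 genes 60 estimates were above 0. Against their own flanks, described below, 0 of 128 gene entries changed. By comparison, 3 of the 61 protein-coding genes of the large single-copy region were higher and 1 was lower, with 28 estimates above 0. The largest rise was at trnE, whose glutamate transfer RNA also serves tetrapyrrole synthesis. Its scaled coverage had a lowest, median and highest value of 0.820, 0.875 and 0.950 in Col0 and of 0.946, 0.994 and 1.135 in the mutants. The ranges met only at their ends, and the change was 0.19 (SE 0.031, limma adjusted p = 0.00016), with set changes of 0.17 (ptac3), 0.18 (ptac14) and 0.21 (pTAC3).

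The next rises were at trnP (proline), which changed by 0.16 (SE 0.033), and at trnY (tyrosine), which changed by 0.15 (SE 0.030). trnY and trnE are neighbours and share reads. In the operon trnA (alanine) changed by 0.15 (SE 0.033) and trnI (isoleucine) by 0.14 (SE 0.022, limma adjusted p = 9.2e-05). trnF, trnD, trnL, trnG (ArthCt092) and trnV of the large single-copy region rose by 0.12, 0.11, 0.097, 0.077 and 0.066. The call at trnD was lost in 7 of 25 settings. trnE, trnY, trnD, trnF and trnP are only 73 to 84 bp long, so reads that cover them also cover their neighbourhood.

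Among the ribosomal RNA genes, rrn16S changed by 0.15 (SE 0.038, limma adjusted p = 0.0060) and rrn23S, for the large-subunit RNA, by 0.11 (SE 0.030, limma adjusted p = 0.012). rrn23S ran from 0.887 to 1.139 in Col0 and from 0.956 to 1.242 in the mutants. Those ranges overlapped over most of their width, no set separated the groups completely, and without the ptac14 set the adjusted p was 0.0601. The other 2 entries counted, rrn4.5S and the ribosomal RNA entry ArthCr091, had changes of 0.052 and 0.064 that did not pass.

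The 3 protein-coding genes that rose were psbA, rbcL and psbC. psbA, for the D1 protein of photosystem II, had a lowest, median and highest scaled coverage of 0.963, 1.008 and 1.099 in Col0 and of 1.029, 1.084 and 1.124 in the mutants. The groups overlapped in part, and the change was 0.076 (SE 0.020, limma adjusted p = 0.0090). rbcL, for the large subunit of Rubisco, changed by 0.067 (SE 0.020, limma adjusted p = 0.016). psbC, for the CP43 protein of photosystem II, changed by 0.054 (SE 0.019) with a limma adjusted p of 0.045, and its call was lost in 16 of 25 settings. Without the ptac14 set psbA had an adjusted p of 0.0800. The call at rbcL was lost in 3 of 25 settings, among them the omission of the ptac14 set and the scaling to the large single-copy region. Under that scaling psbA alone of the 3 passed.

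Of the 4 genes of the PEP core, 1 was lower past the threshold and none was higher, against 12.4% lower and 13.3% higher over all 113 genes. A count of 1 in 4 does not set these genes apart. rpoC2, for the beta'' subunit, changed by -0.031 (SE 0.011, limma adjusted p = 0.045), and that call was lost in 19 of 25 settings. rpoC1, for the beta' subunit, and rpoB, for the beta subunit, had changes of -0.024 (limma adjusted p = 0.143) and -0.021 (limma adjusted p = 0.334). rpoA, for the alpha subunit, had a change of 0.016 (limma adjusted p = 0.536). accD, for a subunit of acetyl-CoA carboxylase, clpP, for a protease subunit, and matK, for an intron maturase, had changes of 0.016, -0.0033 and 0.0068. clpP turned sign with libraries scaled to their median window, and matK with the large single-copy region. ycf2, in the repeat outside the operon, had a change of -0.016 in its first copy that did not pass.

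**Figure D5:**
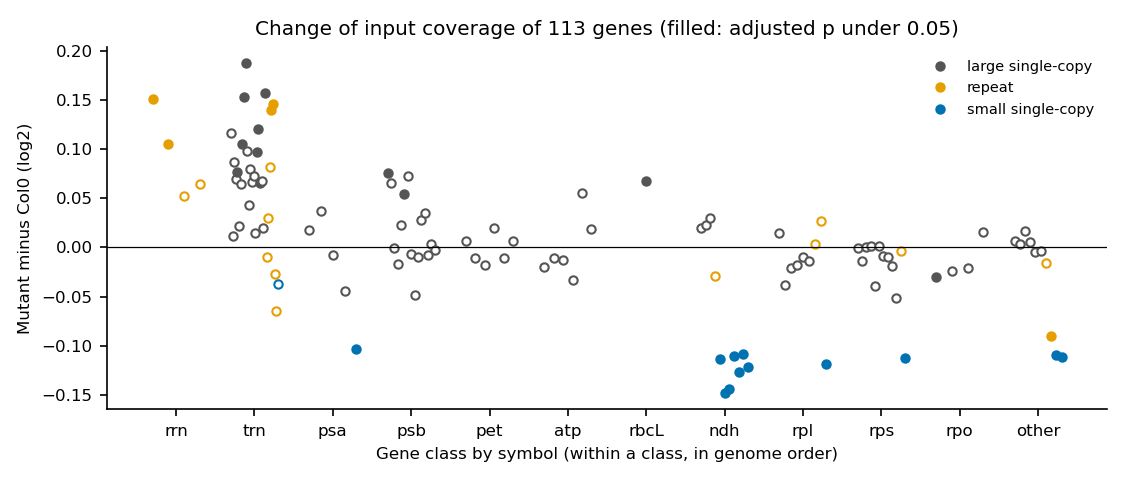
Change of log2 scaled coverage (mutant minus Col0) for 113 genes by class, with colour for the genome region and filled points for genes past the threshold. Genes of the small single-copy region lie between -0.15 and -0.037 whatever their class, and transfer RNA genes of the large single-copy region all lie above 0.

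Dips and humps of single genes were measured as a local contrast, the log2 ratio of a gene's coverage to that of the 1 kb on each side. Flanks were cut at the ends of the table. Only trnH, the histidine transfer RNA gene, had a dip at or below -0.5 in Col0, 1 of 128 entries (0.781%), and it was also the only one in the mutants (0.781%). Its local contrast was -2.25 in Col0 and -2.19 in the mutants (SE 0.051 each). trnH lies at the very start of the coverage table, where the circular genome is cut open in the table, and the part of that end in the dip was not tested. It starts at position 4, so its contrast was taken almost wholly against the 1 kb on its right. Its scaled coverage was 0.096 to 0.170 in Col0 and 0.130 to 0.198 in the mutants, and these ranges overlapped. A filter on genes under 25% of the median coverage removes it, and 0 dips are then left in either genotype.

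Below that limit, shallower contrasts were found for many genes. With 1 copy of each repeated gene, 15 of 113 were below their flanks in Col0 and 71 above (limma, adjusted p under 0.05). In the mutants 15 were below and 74 above, and 14 genes were below in both. The deepest after trnH were trnR (ArthCt093) at -0.33 in Col0 and -0.34 in the mutants (SE 0.034), trnT at -0.27 and -0.23 (SE 0.038), and the ribosomal RNA gene rrn4.5S at -0.17 and -0.16 (SE 0.020). psbM, a small subunit of photosystem II, psbN, a photosystem II assembly factor, trnM and trnG (ArthCt116) followed, between -0.15 and -0.13 in Col0.

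The highest contrasts in Col0 were at trnG (ArthCt092) with 0.38, psbA with 0.35, rps16 with 0.34, rps14 with 0.31 and petG with 0.28. rps16 and rps14 encode proteins of the small ribosomal subunit, and petG a small subunit of the cytochrome b6f complex. In the mutants the same 5 genes had contrasts of 0.42, 0.41, 0.28, 0.26 and 0.29. The flanks of trnG (ArthCt092) include the lowest stretch of the genome, described below. Those of rps16 and rps14 include the low bins at 4501 to 4750 and at 36251 to 36500, also described below. The flank of psbA at the start of the table is cut short and includes trnH. For these 4 genes a high contrast thus holds low flanks as well as the gene's own coverage.

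The local contrast changed between mutants and Col0 in 0 of 128 entries (0%) by limma, with 13 at an unadjusted p under 0.05 and a median SE of 0.023. Among the named genes the largest estimates were at trnP, with 0.15 (SE 0.039, adjusted p = 0.176), and trnE, with 0.10 (SE 0.033, adjusted p = 0.239). With flanks of 2 kb 1 entry passed, as did 1 without ptac14 replicate 1 and 1 without Col0 replicate 2 of the pTAC3 set. Across the 113 genes, the contrasts of Col0 and mutants were correlated at r = 0.990, given as a description across genes that share neighbours.

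By level rather than by contrast, the genes with the lowest scaled coverage in Col0 were trnH, trnT, trnR (ArthCt093), trnG (ArthCt116), psaJ, trnS (ArthCt091), rrn4.5S and trnE. Their Col0 medians ran from 0.153 at trnH and 0.680 at trnT to 0.881 at rrn4.5S. Of these 8 genes only trnE changed in the mutants. The highest levels were at psaC, ndhH, petG, rps7 and trnN (Arthct120), with Col0 medians between 1.11 and 1.15. psaC and ndhH fell in the mutants, whereas petG, rps7 and trnN did not pass. Both lists were chosen by Col0 level, which by itself can tilt the change upward in the lowest and downward in the highest.

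The 5 windows with the lowest Col0 coverage were all in the large single-copy region. They lay at 36001 to 37000 over trnG, trnfM and rps14, at 8001 to 9000 over trnG, at 4001 to 5000 over trnK, at 31001 to 32000 over trnT and at 46001 to 47000 over trnL. Their Col0 medians were 0.674, 0.692, 0.700, 0.760 and 0.763, and their mutant medians were 0.712, 0.757, 0.741, 0.784 and 0.829. The first 3 rose past the threshold, by 0.073, 0.094 and 0.067, and the others had changes of 0.025 and 0.068 that did not pass. Over all windows 20.1% were higher past the threshold. These 5 were chosen for low Col0 coverage, which by itself can tilt their change upward. The 5 highest windows in Col0 were in the repeat outside the operon, over ycf2, ndhB and rps7, with medians between 1.12 and 1.14.

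In bins of 250 bp these low windows resolved into narrow troughs, some between genes. Of 509 bins, counting the repeat in 1 copy and leaving out the first 1000 positions of the table, 8 were at or below -0.5 in Col0 and 9 in the mutants, and the 8 were among the 9. The 8 bins lay at 6 sites more than 1 kb apart, so some lie close to each other. Of the 8 bins, 62.5% held no gene, against 14.7% of all bins, but bins of the same site are counted apart. By site, the lowest bins starting at 8001, 4501 and 46501 held no gene, and those at trnG (ArthCt116), trnT and psaI overlapped one. None of the 8 bins lay in the small single-copy region, whose share of all bins was not taken. The deepest, at 8001 to 8250 between trnS and trnG, had a lowest, median and highest scaled coverage of 0.043, 0.076 and 0.137 in Col0 and of 0.045, 0.111 and 0.155 in the mutants. The genotypes overlapped there, and the mean log2 levels were -2.88 ± 0.36 and -2.68 ± 0.38 (SD, n = 9 each). The bin at 36251 to 36500 at trnG (ArthCt116) had medians of 0.309 in Col0 and 0.339 in the mutants. The bin at 4501 to 4750 between trnK and rps16 had medians of 0.495 and 0.517. Of the 8 bins 7 had a higher estimate in the mutants, with a median change of 0.080 against -0.002 over all bins. No test was run on them, and their choice by low Col0 coverage can by itself tilt the change upward.

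Within the large single-copy region, positions were also averaged by annotation, without the first 1000 positions of the table and so without trnH. Protein-coding genes covered 48942 positions and averaged 1.019 in Col0 and 1.020 in the mutants. Transfer RNA genes, with their introns and thus with matK inside trnK, covered 5984 positions and averaged 0.956 ± 0.024 in Col0 and 0.992 ± 0.024 in the mutants (SD, n = 9 each). Positions without a gene numbered 28245 and averaged 0.892 ± 0.036 and 0.906 ± 0.028. Transfer RNA genes averaged 5.27% more in ptac3 of the ptac3 set, 3.34% more in ptac14 and 2.72% more in ptac3 of the pTAC3 set. In the same order, positions without a gene averaged 2.29%, 2.59% and 0.038% more. Protein-coding genes changed by -0.286%, 0.540% and 0.279%, a mean of 0.178% over the sets. In both genotypes positions without a gene had the lowest mean coverage, and these averages carry no test.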

How the data were processed

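The authors deposited 1 table of read coverage, a signal of whole numbers entered under the unit other, with 1 column per library and 1 line per plastid position. That the values are coverage was read from the values. The submitters' processing notes name Trim Galore 0.4.1, Bowtie2 2.2.8.9, bedtools 2.25.0 and TAIR10. The treatment of duplicates and of reads from the repeat is not given in the sources used here, and it could change the coverage of the repeat against the other regions. The 18 input columns were used and 18 other value columns were not. Gene names came from a RefSeq table for TAIR10.1 with 129 plastid entries. An entry with equal coordinates was left out, which left 128, and 113 with 1 copy of each repeated gene.

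Coverage was averaged over 154 windows of 1 kb (the last 477 positions were left out), genes and regions. It was divided by the library mean and log2 transformed with a pseudocount of 5% of that mean. Fold changes are on that scale and understate changes at very low coverage. Windows, genes and local contrasts were tested in limma 3.58.1 (lmFit, eBayes; R 4.3.3), two-sided, over all features, with set as a factor and Benjamini-Hochberg adjusted p under 0.05. Sets were tested as contrasts of 6 group means. Single values were tested by exact permutation of genotypes within sets. Count-based tools were not used, since coverage is not counts. The tests were tested on simulated data. Of 18 replicate pairs 0 were identical, and at positions 300 bp apart their chi-square per degree of freedom was 1.15 to 2.69, so each library counted once.

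Genes named were the 8 lowest and 5 highest in level and in local contrast in Col0 and the 6 largest falls and rises that had the same direction in all sets. Fixed names were psbA, rbcL, rrn16S, rrn23S, trnE, rpoB, rpoC1, rpoC2, accD, clpP, ycf1, ycf2, matK and ndhB. Windows named were the 5 lowest, highest, most fallen and most risen. Other genes and windows were named after their values were seen. The members, lists and tests were chosen with earlier results of these data known. Alternatives were other scalings, windows, flanks, pseudocounts and filters, median coverage, a moderated fit with trend and robust settings, 1 repeat copy, leaving out a library or the ptac14 set, and a replicate block. Base composition was not analysed here.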

Additional observations from a re-analysis of the deposited data

How the results depend on the processing

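The lower coverage of the small single-copy region held its direction and call under every alternative run on it, from -0.137 to -0.126 without a library. The count of changed windows was 50 to 60 and that of genes 30 to 36 without a library. In windows of 5 kb, of which only 30 were tested, 19 changed over all sets and 10 (ptac3 set), 9 (ptac14 set) and 7 (pTAC3 set) within sets. Without a library the sets' counts ran from 5 to 30, from 9 to 21 (9 without ptac14 replicate 2) and from 4 to 35. The pTAC3 set had 9 with libraries scaled to their median window. Without the low gene trnH, 0 dips were left in either genotype. Changed local contrasts numbered 1 with flanks of 2 kb and 0 to 1 without a library. The repeat without the operon reversed to -0.027, and the small single-copy slope reversed to 0.025 in windows of 5 kb; the latter cause was not tested. The repeat slope was 0.053 without the ptac14 set and did not pass, with fewer libraries in the test. The unevenness, from -0.0146 to -0.0096 without a library, passed without ptac3 replicate 1 of the ptac3 set or Col0 replicate 2 of the ptac14 set. clpP reversed to 0.0071 with the median window and ran from -0.012 to 0.0035 without a library, and matK reversed to -0.0057 with the large single-copy scaling. Same-numbered libraries did not deviate together (correlations from -0.74 to 0.49, and 1 of 9 closest to its own number), so numbers were not used as pairs in the main tests. Deviations within a group of 3 sum to 0, so this check cannot exclude that same-numbered libraries were handled together. With the replicate block 51 windows and 32 genes changed over all sets, and 4 (ptac3 set), 10 (ptac14 set) and 0 (pTAC3 set) windows within sets. A filter on low windows removed none. Groups of 3 libraries and a relative scale limit what small changes can be seen.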

Other observations

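A relation between the regions was looked at after the values were seen. Across the 9 Col0 libraries, the small over large single-copy ratio and the operon over outer repeat ratio had Pearson's r = -0.771 (exact permutation p = 0.0172, adjusted p = 0.0343 over 4 relations) and Spearman's rho = -0.717 (exact permutation p = 0.0369, adjusted p = 0.0492). Across the 9 mutant libraries r was -0.654 (exact permutation p = 0.0551, adjusted p = 0.0734) and rho -0.717 (exact permutation p = 0.0369, adjusted p = 0.0492). With group means removed r was -0.813 in Col0 (permutation p = 0.00928, adjusted p = 0.0343) and -0.394 in the mutants (permutation p = 0.296, adjusted p = 0.296). Such values sum to 0 within each group of 3, so these p-values are not exact and may be too small. All these permutations exchanged libraries across sets. The sets differed in level, with a mean operon ratio in Col0 of 0.974 in the ptac14 set and 0.850 in the pTAC3 set. Without the 2 libraries farthest from the median, r was -0.481 in Col0 and -0.307 in the mutants, and -0.506 and -0.238 with group means removed. Leaving out these libraries also narrows the range, so the lower values do not show how far the relation rests on them. Both ratios come from the same libraries.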
